A study of Mus musculus with 120 samples.

Results

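Immediate early genes of the Egr, Nr4a and Ier families were described in 120 single mouse ILC2, the innate lymphoid cells that secrete type 2 cytokines. The set was a list of gene names, drawn up with earlier results of these data known: Egr1, Egr2 and Egr3, Nr4a1, Nr4a2 and Nr4a3, and Ier2, Ier3 and Ier5, which are 9 of the 46078 gene identifiers counted. Each identifier was matched to its symbol, and reads were summed over the cells of each of 12 groups, formed by 2 secretion indexes and 6 states.

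The cells came from the mesentery of 20 wildtype C57BL/6 mice, pooled (fat tissues in the labels), and were sorted as lineage-negative cells with c-Kit and Sca-1 on the surface. They were then kept for months before use in medium that held IL-2, so that they stand for cultured and not freshly isolated ILC2. Pre-stimulation cells too had been cultured with IL-2. Secretion of IL-13 or of IL-5 (the index) was followed cell by cell under a microscope, and single cells were picked by state. Pre-stimulation cells (5 per index) were taken before IL-2/IL-33 was added; the labels give their treatment as none for the IL-5 index and as a dash for the IL-13 index. Cells of the transition state were taken 30, 60 or 90 min after the onset of their own secretion, activated cells were secreting late in the stimulation, and silent cells were not secreting then. Each of these groups held 11 cells per index, all incubated with IL-2/IL-33. The 11 cells of a group carry 2 dates in their titles, 5 cells the first and 6 the second, while pre-stimulation cells carry the first only. The labels do not say what a date marks, and no date is shared between the indexes, so index and date cannot be told apart. No animal or culture is named for a cell, and the mice were pooled. A group was therefore treated as 1 sample: no difference between groups was tested. Intervals on levels and ratios cover counting error of reads only, intervals on shares of cells take the cells as independent draws, and neither covers a difference between cultures.

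Immediate early genes are transcribed within minutes of a stimulus from factors already in the cell, without new protein synthesis, and their mRNAs are short-lived. Egr proteins are zinc finger transcription factors that bind GC-rich DNA, and Nr4a proteins are orphan nuclear receptors; in lymphocytes both families are known as responders to antigen receptor and calcium signals and as brakes on activation. Of the Ier genes, Ier2 and Ier5 encode related proteins, and Ier3 an unrelated, stress-induced regulator of cell survival.

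The start regions of Egr2, Nr4a1 and Ier5 are shown first, since the levels of these members followed each other over the groups. RefSeq start windows (GRCm38.p6, 250 bases before to 50 after a start) were examined for 6 of the 9 members. There were 10 windows in all, 5 of them for Egr2. The printed stretches run 5′ to 3′ on the gene's strand, end at the last base before the start (the second Egr2 stretch ends 53 bases before its start), and overlap no exon of the GENCODE annotation, those of Egr2 and Nr4a1 lying within the annotated span of their gene; capitals mark motif matches on either strand. The first Egr2 stretch (chr10:67537416-67537565, plus strand) holds a CArG box, the element bound by serum response factor, and an SP1 site. The second (chr10:67537787-67537816, plus strand) holds a CArG box of other letters. The Nr4a1 stretch (chr15:101266696-101266845, plus strand) holds an SP1 site and, overlapping each other, an EGR site and an SP1 site. The Ier5 stretch (chr1:155099637-155099786, minus strand) holds 2 SP1 sites.
Egr2 first start region: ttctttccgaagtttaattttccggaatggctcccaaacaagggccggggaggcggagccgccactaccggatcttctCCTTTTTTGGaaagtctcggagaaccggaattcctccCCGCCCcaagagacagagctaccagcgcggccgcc
Egr2 second start region: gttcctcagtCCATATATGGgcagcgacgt
Nr4a1 start region: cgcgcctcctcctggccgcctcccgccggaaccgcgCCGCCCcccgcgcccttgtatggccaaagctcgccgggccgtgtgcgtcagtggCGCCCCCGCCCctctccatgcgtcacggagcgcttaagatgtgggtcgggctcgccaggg
Ier5 start region: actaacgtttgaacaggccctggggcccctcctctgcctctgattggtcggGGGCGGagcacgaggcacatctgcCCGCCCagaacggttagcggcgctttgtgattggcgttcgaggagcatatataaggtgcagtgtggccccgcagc

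A CArG box was present in 4 of the 5 Egr2 windows, 3 of which overlap and share 1 box, so that 2 distinct boxes were found, in no window of the 5 other members examined, and in 1.63% of all 32851 windows of the same length. Egr1, Egr3 and Ier2 had no window examined, and their matches are not known. For Egr3 and Ier2 no window was found, while Egr1 was left out of the search by choice. The EGR site (GCGTGGGCG or GCGGGGGCG) was matched in the Nr4a1 window alone among the members examined and in 3.47% of all windows. An NF-kB site was matched in the Ier3 window, overlapping an SP1 site there, and at the start of Nr4a1, against 4.51% of all windows. The SP1 site (GGGCGG) was common, in 35.7% of all windows. The CRE (TGACGTCA, 1.79% of windows), the NBRE that Nr4a receptors bind (AAAGGTCA, 1.51%) and the AP-1 site (TGAGTCA, 5.20%) had no match in any member window examined. These are matches of letters in a window and not sites shown to be bound.

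The 120 cells held 31016336 gene reads in all, from 65 to 785198 in single cells around a median of 254001; 6 cells lay under 84667 reads, the median divided by 3, and leaving them out changed no count of members past the 4-fold limit by more than 1.5 times. All 12 ILC2 markers examined had reads, with Gata3 in 116 cells, the IL-33 receptor gene Il1rl1 in 113 and Ly6a (Sca-1) in 120. Areg was read in only 14 cells, Il7r in 46, Thy1 in 53, Icos in 69 and Ptprc in 70. Summed ILC2 markers were at 11343.0 CPM (IL-13) and 11000.0 CPM (IL-5) before stimulation, and 10958.6 and 12377.8 CPM at 30 min. They were at 6100.2 and 7647.0 CPM in activated and 5753.7 and 6928.1 CPM in silent cells, and the part of this in the results was not tested. Of 6 T cell markers, Cd4, Cd8a and Cd8b1 were at 0 in every cell, Cd3d and Cd3e had reads in 4 and 3 cells, and Cd3g in 26. The summed T cell markers were highest before stimulation, at 1128.2 CPM in the IL-13 and 1195.4 in the IL-5 index (all of it Cd3g), against 250.3 and 20.3 CPM at 30 min, and at 0 to 522.5 CPM over all later groups; their part in the results was not tested. All 4 B cell, all 3 NK cell and all 5 adipocyte and fibroblast markers were at 0. Of 4 macrophage markers only Cd68 (2 cells) and Adgre1 (1 cell) had reads, with Lyz2 and Csf1r at 0. Of 5 mast cell and basophil markers only Fcer1a (15 cells) and Cpa3 (2 cells) did, at summed levels of 300.7 (IL-13) and 37.1 CPM (IL-5) before stimulation, 0 at 30 min in both indexes and 0 to 326.0 CPM over the later groups; their part in the results was not tested.

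Levels are given as CPM, the reads of a gene per 1000000 gene reads summed over the cells of a group, with an exact 95% Poisson interval. Reads come from the 3′ end of transcripts, and levels are compared between groups for 1 gene and not between genes. Where a group had 0 reads of a gene, a ratio was taken against a floor of 3 reads over that group. The fold is then given as at least that value, which makes no allowance for counting error. With 1 to 3 reads the floor was used in counts, medians and plots, and the plain ratio is given with its counting interval. Of the 9 members, 7 had at least 1 read in the series, and 5 (Egr2, Nr4a1, Ier2, Ier3 and Ier5) averaged 20 CPM or more across the groups. These 5 passed in part through the groups where they were high. Of the 66 levels of a member in a group with more than 3 reads, 48 moved by over 1.5 times on leaving out 1 cell: 5 of 10 for Egr2, 8 of 11 for Nr4a1, 6 of 12 for Ier5, 9 of 12 for Ier2, 10 of 11 for Ier3 and every one for Egr1 and Nr4a3.

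Of the Egr genes, which share DNA-binding zinc fingers, Egr2 carried nearly all reads of the family. Egr2 (ENSMUSG00000037868, chr10:67535475-67542188, GRCm38) had 2388 reads in 61 cells, Egr1 137 reads in 4 cells and Egr3 0 reads in 120 cells. A floor of 3 reads over all cells stands at 0.0967 CPM.

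Before stimulation, Egr2 had 0 reads in all 5 cells of the IL-13 index, which by the Poisson interval allows up to 3.83 CPM, and 1 read in 1 of the 5 cells of the IL-5 index. At 30 min it was read in 10 of 11 cells of the IL-13 index (90.9%, exact binomial 58.7 to 99.8%), from 0 to a median of 221.3 and a highest cell of 506.4 CPM, and the summed level was 220.0 CPM (202.6 to 238.5). All but 1 of these cells lay above every pre-stimulation cell, and the summed level was at least 70.7-fold higher. That is a log2 ratio of 6.14 to the floor, with a counting interval from 5.84. Of IL-5-indexed cells, 7 of 11 had Egr2 at 30 min (63.6%, 30.8 to 89.1%), 1 of the 4 others being a cell with 73 gene reads in all, and the cells ran from 0 over a median of 92.9 to 268.9 CPM. The summed level was 125.9 CPM (114.5 to 138.1), and 447 reads against 1 gave a plain log2 ratio of 7.25 with a counting interval of 4.77 to 12.56, or 5.67 with the 1 read taken at the floor. Egr2 was high on both title dates at 30 min, at 208.4 and 226.9 CPM in the IL-13 index and 70.8 and 168.6 CPM in the IL-5 index.

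The later groups of the IL-13 index had lower summed Egr2, at 136.5 CPM at 60 min, 110.5 at 90 min, 74.5 in activated and 52.5 in silent cells. Reads were found in 9, 6, 4 and 5 of 11 cells of these groups, against 10 of 11 at 30 min. The highest cell was at 694.6 CPM at 60 min, 427.6 at 90 min, 725.6 among activated and 293.3 among silent cells, against 506.4 at 30 min. On the first title date the summed level was not lower at 60 min, at 238.3 CPM against 208.4 at 30 min. On the second it was 85.4 against 226.9 CPM. Without replicate 9 the 90 min level was 56.9 CPM, and without replicate 4 the silent level was 30.1 CPM. Activated replicate 10 alone held 70.2% of the Egr2 reads of the activated group, and without it activated against 30 min moved from a log2 ratio of -1.56 to -3.20. For IL-5 the summed level was 38.9 CPM at 60 min, 64.5 at 90 min, 18.8 in activated and 16.6 in silent cells. Activated cells of this index held Egr2 in 7 of 11 cells, none above 57.8 CPM, while the 51 reads of the silent group were all in replicate 5. Activated against 30 min was a log2 ratio of -2.75 (counting interval -3.13 to -2.38, -3.07 to -2.48 on leaving out each cell) in the IL-5 index.

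Few steps in the order of Egr2 levels were separated. From highest to lowest the 12 groups ran IL-13 30 min, IL-13 60 min, IL-5 30 min, IL-13 90 min, IL-13 activated, IL-5 90 min, IL-13 silent, IL-5 60 min, IL-5 activated, IL-5 silent and both pre-stimulation groups. The ranges on leaving out each cell met between neighbours in 9 of 11 steps, against 10 of 11 for Nr4a1 and for Ier5. The exceptions for Egr2 were the step below IL-13 30 min and the step from IL-5 60 min to IL-5 activated.

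**Figure D1:**
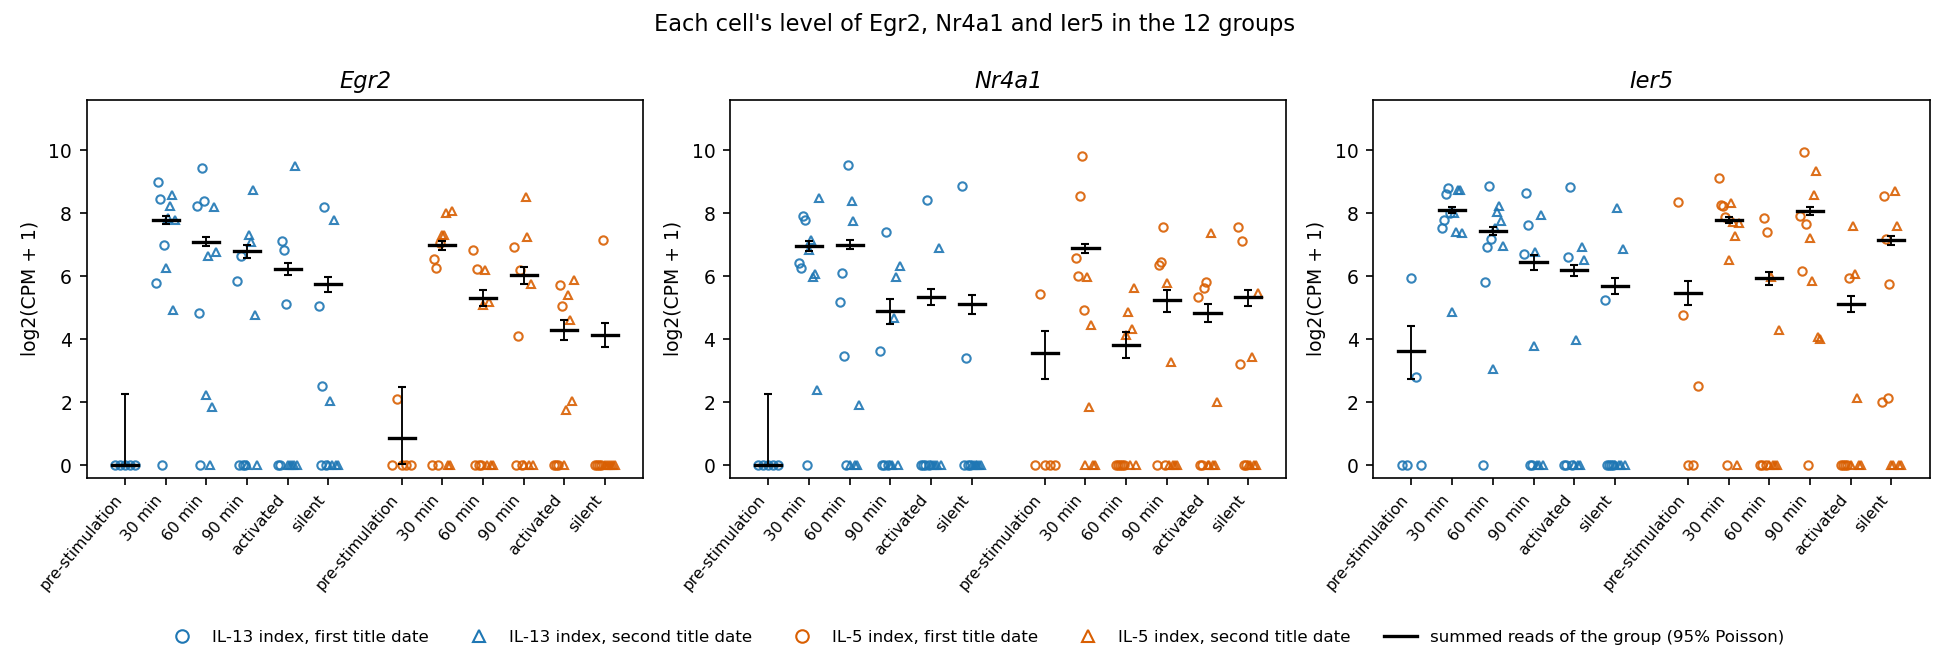
Each point is 1 cell, at log2(CPM + 1) on the y axis, in the 12 groups on the x axis; circles are cells of the first title date and triangles of the second, and black bars are the summed level of the group with its 95% Poisson interval. Egr2 and Nr4a1 are at 0 in all 5 pre-stimulation cells of the IL-13 index and above 0 in 10 of 11 cells at 30 min, and Ier5 is above 0 in 11 of 11.

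Egr1 (ENSMUSG00000038418, chr18:34859823-34864984), often the first Egr gene to respond in other cells, was nearly absent. It had 27 reads in 1 cell at 30 min and 105 reads in 1 cell and 1 in another at 60 min, all in the IL-13 index, and 4 reads in pre-stimulation replicate 2 of the IL-5 index. Its summed level was 10.1 and 34.6 CPM in the former groups and 3.30 CPM in the latter, and it was at 0 in the other 9 groups. Egr3 (ENSMUSG00000033730, chr14:70077203-70082614), which acts with Egr2 in T cells, was at 0 throughout.

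Of the Nr4a receptors, Nr4a1 (ENSMUSG00000023034, chr15:101254269-101274795), the gene of the receptor Nur77, had 1750 reads in 54 cells, Nr4a3 (ENSMUSG00000028341, chr4:48045153-48086447), the gene of NOR-1, 506 reads in 18 cells, and Nr4a2 (ENSMUSG00000026826, chr2:57106830-57124003), the gene of Nurr1, 0 reads in 120 cells.

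Nr4a1 was at 0 in all 5 pre-stimulation cells of the IL-13 index, and at 30 min it was read in 10 of 11 cells (90.9%, 58.7 to 99.8%), from 0 over a median of 84.0 to 360.5 CPM. The summed level of 124.4 CPM (111.4 to 138.5) was at least 40.0-fold higher than before stimulation, and the title dates were alike, at 123.8 and 124.7 CPM. Nr4a1 in the IL-5 index was at 0, 42.4, 0, 0 and 0 CPM in the 5 pre-stimulation cells, the 13 reads being in replicate 2. At 30 min 8 of 11 cells had reads (72.7%, 39.0 to 94.0%), from 0 over a median of 29.4 to 895.2 CPM, and the summed level was 117.1 CPM (106.1 to 128.9), a log2 ratio of 3.45 (counting interval 2.66 to 4.37). It was 2.55 without 30 min replicate 4 and 5.14 without pre-stimulation replicate 2. Here the title dates differed: all 5 cells of the first date held 13 to 207 reads and summed to 246.0 CPM, and the 6 cells of the second held 0 to 24 reads and summed to 17.0 CPM. Replicate 4 alone held 49.8% of the reads of this group.

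After 30 min, Nr4a1 in the IL-13 index was at 127.4 CPM at 60 min, with reads in 7 of 11 cells and up to 741.7 CPM, and at 76.4 CPM there without replicate 5. It was 28.8 CPM at 90 min, 39.5 in activated and 33.6 in silent cells. Only 2 activated and 2 silent cells had reads, and 1 cell of each group held 78.6% and 97.8% of them. Under the IL-5 index the level was 13.2 CPM at 60 min, 36.6 at 90 min, 27.6 in activated and 39.1 in silent cells, with reads in 4, 5, 5 and 5 of 11 cells. Activated against 30 min was a log2 ratio of -2.09 for IL-5, with -2.96 on the first title date and 0.54 on the second, and -1.19 without 30 min replicate 4. It was -1.66 for IL-13, where leaving out activated replicate 4 gave -3.74. In the order of levels only the step from the 3 highest groups (both indexes at 30 min and IL-13 60 min) to the rest was wider than the ranges on leaving out each cell; the other 10 of 11 steps met.

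Nr4a3 was read in few cells, and only in stimulated ones. Its summed level was 35.9 CPM at 30 min in the IL-13 index, from 3 of 11 cells, and 54.9 CPM in the IL-5 index, from 4 of 11 cells, against 0 in all 10 pre-stimulation cells, so that it was at least 11.5-fold and at least 22.2-fold higher. Replicate 5 held 65.1% of the IL-5 reads at 30 min, and without it the log2 ratio to the floor moved from 4.47 to 3.14. Without replicate 6 that of IL-13 moved from 3.53 to 2.79. Summed levels were lower in each later group than at 30 min, but the IL-5 log2 ratio of 60 to 30 min ran from -1.57 to 0.56 on leaving out each cell, and the IL-13 ratio of 90 to 30 min was 0.46 on the first title date. IL-13-indexed cells had 18.9 CPM at 60 min, 14.4 at 90 min, 3.13 in activated and 0 in silent ones. The corresponding IL-5 levels were 32.2, 6.56, 0 and 0.326 CPM. All of these rest on 0 to 3 cells a group, and Nr4a3 had a 12-group mean of 13.9 CPM, under the level set for the background. Activated against 30 min was a log2 ratio of -3.52 (counting interval -4.62 to -2.58) for IL-13, and -5.12 without activated replicate 4, which held all 10 reads. For IL-5 the activated level was at least 68.3-fold lower, a log2 ratio of -6.09 to the floor and of -4.77 without 30 min replicate 5.

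**Figure D2:**
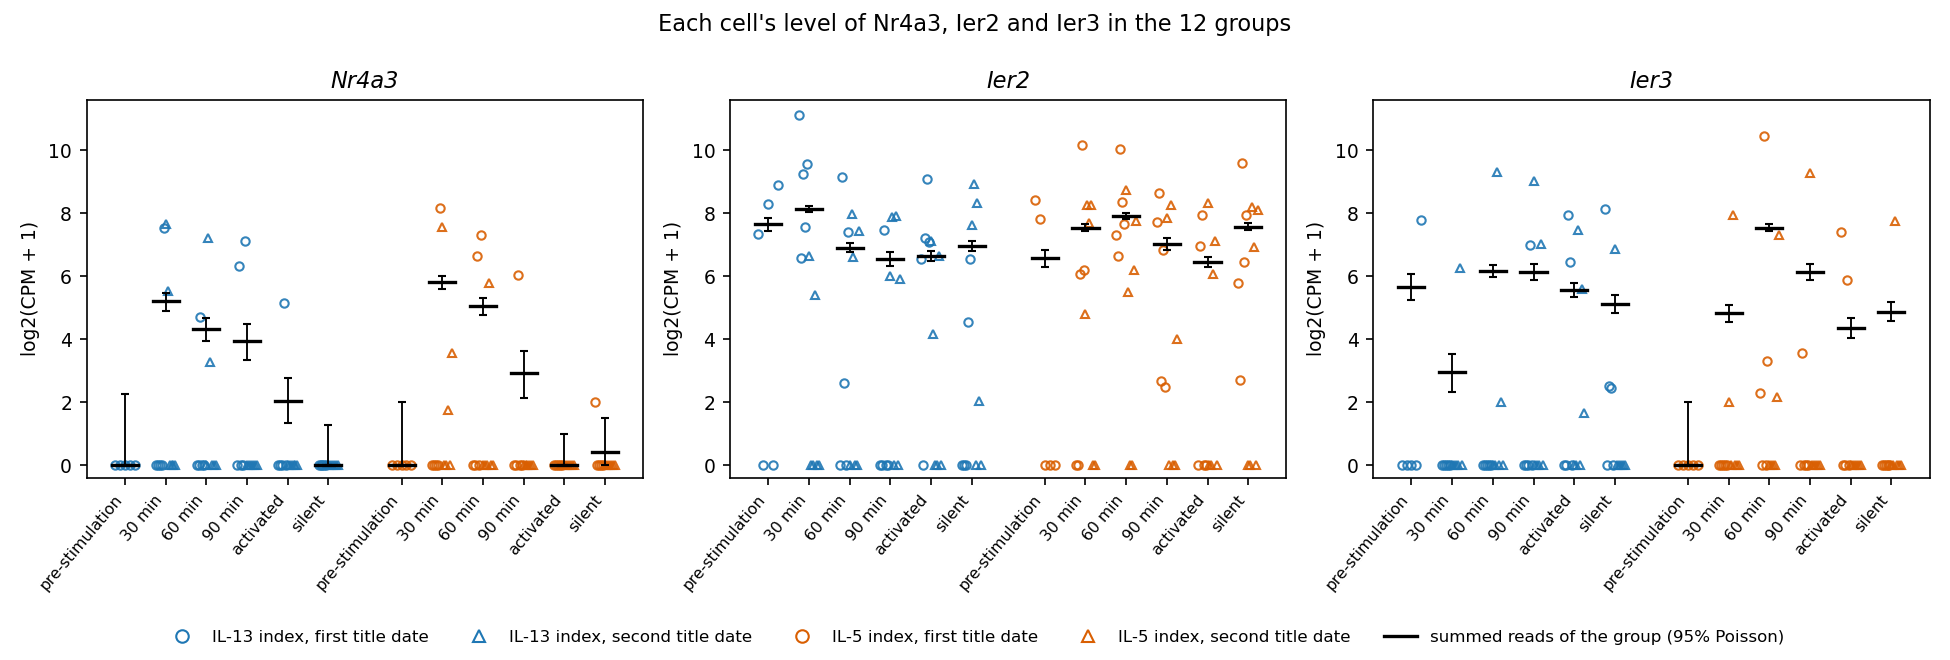
Each point is 1 cell, at log2(CPM + 1) on the y axis, in the 12 groups on the x axis, with symbols and bars as for Egr2. Nr4a3 points above 0 are few and lie in stimulated groups, Ier2 is spread from 0 to over 240 CPM in every group, before stimulation too, and Ier3 rests on 1 to 5 cells in each group where it is read.

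Of the Ier genes, Ier5 was, like Egr2 and Nr4a1, over 4-fold higher at 30 min than before stimulation in both indexes. Ier5 (ENSMUSG00000056708, chr1:155096361-155099636), whose product binds the phosphatase PP2A and heat shock factor, had 3878 reads in 74 cells.

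Ier5 was at 0, 0, 60.7, 5.93 and 0 CPM in the 5 pre-stimulation cells of the IL-13 index. At 30 min all 11 cells of that index had it (100.0%, 71.5 to 100.0%), from 28.4 over a median of 255.5 to 448.2 CPM, and 10 of these 11 cells lay above every pre-stimulation cell. The summed level was 273.8 CPM (254.4 to 294.4) against 11.4 CPM, a log2 ratio of 4.59 (counting interval 3.74 to 5.59), and 6.19 without pre-stimulation replicate 3. The 5 pre-stimulation cells of the IL-5 index were at 329.9, 26.1, 0, 0 and 4.67 CPM, and at 30 min 9 of 11 cells had reads, from 0 over a median of 208.7 to 561.2 CPM. The groups overlapped, through pre-stimulation replicate 1 and through the 30 min cells without Ier5 reads. The log2 ratio was 2.34 (counting interval 1.94 to 2.77), and 4.73 without pre-stimulation replicate 1. It was 1.99 and 1.94, under the 4-fold limit, without pre-stimulation replicate 3 and without replicate 4.

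Ier5 of the IL-13 index was 172.8 CPM at 60 min, with reads in 10 of 11 cells, 85.9 at 90 min, 72.0 in activated and 51.0 in silent cells, with reads in 6, 5 and 3 of 11 cells. Activated replicate 4 held 57.8% and silent replicate 7 held 67.4% of the reads, and without them these levels were 33.4 and 18.9 CPM. Under the IL-5 index it was 60.0 CPM at 60 min, from 4 of 11 cells, and again 270.6 CPM at 90 min, from 10 of 11 cells, against 30 min a log2 ratio of 0.29 (counting interval 0.12 to 0.45, -0.22 to 0.48 on leaving out each cell). The high level at 90 min was present on both title dates, at 298.3 and 246.8 CPM, and without the highest cell it was 190.3 CPM. Summed Egr2 and Nr4a1 of that index were also lower at 60 min than at 30 and at 90 min, but not on each title date. Nr4a1 on the second date was at 17.0, 23.8 and 13.2 CPM at 30, 60 and 90 min. Egr2 on the first date was at 38.6 CPM at 60 min and 33.1 at 90 min. The lower 60 min level held for Nr4a1 on the first date and for Egr2 on the second. Activated cells of the IL-5 index were at 33.8 CPM with reads in 4 of 11 cells, and silent cells at 140.6 CPM with reads in 7 of 11, a log2 ratio of -2.06 (counting interval -2.36 to -1.77); leaving out single cells moved it between -3.34 and -1.53, and each of 11 cells, when left out, brought it under 4-fold. On the first and second title date this ratio was -2.99 and -1.78. Activated against silent IL-13-indexed cells gave 0.50, with 4.00 on the first and -0.91 on the second date, and from -0.61 to 1.93 on leaving out each cell.

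Ier2 (ENSMUSG00000053560, chr8:84661331-84662852) was read in 73 cells and was present before stimulation. The 5 pre-stimulation cells were at 162.5, 0, 315.6, 0 and 472.3 CPM in the IL-13 index and at 344.9, 225.1, 0, 0 and 0 CPM in the IL-5 index. At 30 min the summed levels were 280.5 and 184.7 CPM, log2 ratios of 0.48 and 0.96, and cells ran from 0 to 2226.2 and to 1146.0 CPM, across the range of the pre-stimulation cells. In the IL-13 index 719.9 CPM on the first title date stood against 21.4 CPM on the second, and 49.4% of reads were in replicate 1, without which the ratio was -0.41. Within the first title date, which holds all pre-stimulation cells, the ratio was 1.84 for IL-13 and 1.11 for IL-5. The 8 later groups lay between 86.3 CPM (activated, IL-5 index) and 238.8 CPM (60 min, IL-5 index), and every neighbouring pair in the order of the 12 levels met on leaving out each cell.

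Ier3 (ENSMUSG00000003541, chr17:35821684-35822923) was read in 28 cells, and 1 cell held most of its reads in 10 of the 11 groups with any, all but activated IL-13-indexed cells. The 48 reads before stimulation in the IL-13 index were all in replicate 5 and the 18 reads at 30 min all in replicate 10, and the log2 ratio of -2.89 became 0.75 without the former. Ier3 of the IL-5 index was at 0 in all 5 pre-stimulation cells and 27.3 CPM at 30 min, 96 of the 97 reads being in replicate 8. At 60 min in that index replicate 3 held 91.1% of the reads and set a level of 185.0 CPM, which was 18.6 CPM without it.

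**Figure D3:**
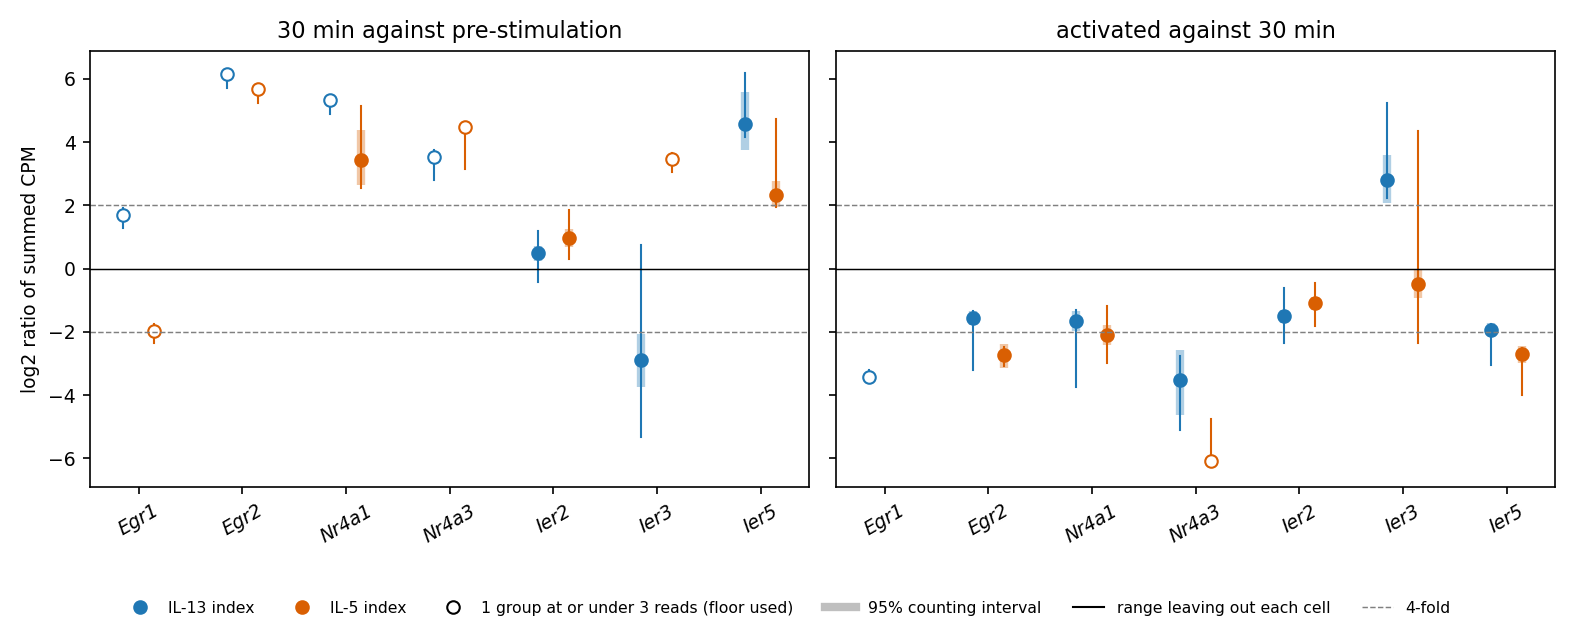
Points are log2 ratios of summed CPM on the y axis for the 7 members with reads on the x axis, at 30 min against pre-stimulation (left) and activated against 30 min (right); thick bars are 95% counting intervals, thin lines the range on leaving out each cell, open points ratios in which 1 group had 3 reads or fewer, and dashed lines 4-fold. Egr2, Nr4a1, Nr4a3 and Ier5 lie above the upper dashed line on the left in both indexes, with log2 ratios, taken at the floor where a group had 3 reads or fewer, from 2.34 to 6.14, and Ier2 lies between the lines.

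Counted over the set, 4 of the 9 members were at least 4-fold higher at 30 min than before stimulation under the IL-13 index (Egr2, Nr4a1, Nr4a3 and Ier5). For IL-5 it was 5 of 9 (these and Ier3). Ier3 was at least 4-fold lower under the IL-13 index, on 1 cell in each group. In the background 16.5% of genes were at least 4-fold lower there. The background was the 4866 genes with a mean of at least 20 CPM, of which 24% were at least 4-fold higher in the IL-13 and 28.5% in the IL-5 index. Of the 5 members at that level, 3 were at least 4-fold higher in the IL-13 and 4 in the IL-5 index. The median log2 ratio over the 7 members with a value, of which Egr1 and Nr4a3 were under that level, was 3.53 and 3.45, against 0.09 and 0.30 over the background genes. Both comparisons stand on 5 pre-stimulation cells, and every comparison with pre-stimulation within an index shares them.

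For activated against pre-stimulation cells 3 of 9 members were at least 4-fold higher under the IL-13 index (Egr2, Nr4a1 and Ier5) and 2 of 9 under IL-5 (Egr2 and Ier3), against 25.8% and 28.4% of the background genes. Without activated replicate 4 of the IL-13 index the count was 1, and without activated replicate 1 of the IL-5 index it was 1. Egr1 was 4.11-fold lower against the floor in activated cells of the IL-5 index, from 4 reads in 1 pre-stimulation cell, where 17.1% of the background genes were at least 4-fold lower. Silent against pre-stimulation cells gave 3 of 9 (Egr2, Nr4a1 and Ier5) and 2 of 9 (Egr2 and Ier3), against 26.8% and 28% of the background. Leaving out each cell the silent counts ran from 2 to 3 in both indexes, and Ier5 of the IL-13 index, at 2.16, was under the limit when any 1 of 5 cells was left out, at 0.73 without silent replicate 7. On the first title date, which holds all pre-stimulation cells, silent Ier5 of that index was lower, at 7.67 CPM against 11.4. These shares, 2 or 3 members of 9, are near the background. The silent Egr2 and Ier3 levels in the IL-5 index rest on 1 cell each, and 1 cell held 97.8% of the silent Nr4a1 reads in the IL-13 index.

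Between activated and silent cells no member was at least 4-fold higher in either index, against 12.6% of the background genes in the IL-13 and 9.21% in the IL-5 index, and Ier5 of the IL-5 index was the 1 member at least 4-fold lower, where 12.2% of the background genes were, so that 1 of 9 is near the background. Activated cells were at least 4-fold below the cells at 30 min for 2 of 9 members under the IL-13 index (Egr1 and Nr4a3, the former from 1 cell, while Ier3 was higher, as were 16.9% of the background genes). For IL-5 it was 4 of 9 (Egr2, Nr4a1, Nr4a3 and Ier5). The background shares were 15.7% and 14.1%, over genes at the set level, which Egr1 and Nr4a3 did not reach. Of the 5 members that did, 0 (IL-13) and 3 (IL-5) were lower. In the IL-13 index this count ran from 1 without 30 min replicate 1, which held all 27 Egr1 reads, to 5 without activated replicate 4, and at a 2-fold limit it was 6. The median log2 ratio of members with a value was -1.66 and -2.40, against 0.19 and -0.05 over the background genes.

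The number of members with a read was counted in each cell. Depth sets how many genes are found in a cell, so each cell was thinned to 100000 gene reads, which left out 7 shallower cells (3 at 90 min in the IL-13 index, and 1 each at 30, 60 and 90 min and among silent cells in the IL-5 index). Among IL-13-indexed cells the median number of members with a read was 1 of 9 before stimulation, with a range of 0 to 2. It was 4 at 30 min (range 3 to 5) and 3 at 60 min (range 2 to 6). At 90 min it was 2.5 (range 1 to 3), and in activated and silent cells it was 1 (range 0 to 6) and 2 (range 0 to 4). All 11 cells at 30 min held at least 3 members, and none of the 5 before stimulation did. The IL-5 medians were 1 before stimulation (range 0 to 3) and 3.5 at 30 min (range 2 to 5), with at least 3 members in 1 of 5 and in 9 of 10 cells. Later they were 2.5 at 60 min, 3.5 at 90 min, 2 in activated and 2.5 in silent cells. Without thinning the medians were 4 at 30 min in both indexes. Over all genes, the median number found in a thinned cell was 1894 before stimulation and 2227 at 30 min for IL-13, with 1426 to 3894 and 1885 to 2485 over the cells. For IL-5 it was 2228 and 2440. It was 2922 and 3003 in activated cells, where the medians of members were 1 and 2. Its part in the members found was not tested.

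**Figure D4:**
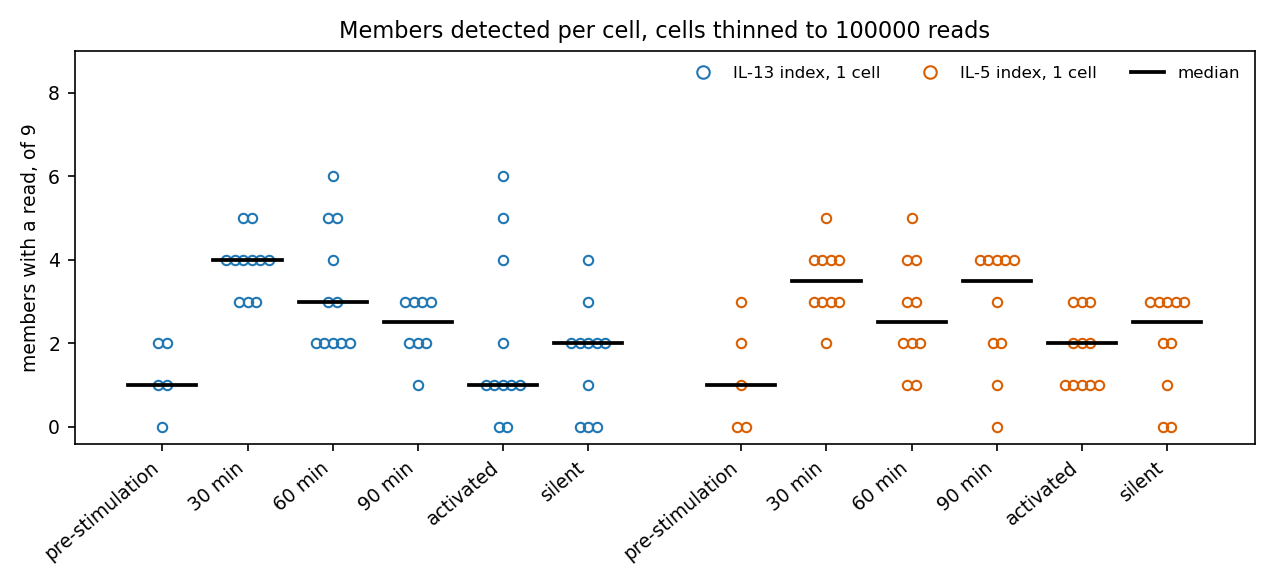
Each point is 1 cell thinned to 100000 gene reads, at the number of the 9 members with at least 1 read on the y axis, in the 12 groups on the x axis, and black bars are medians. The IL-13 index cells lie at 3 to 5 members at 30 min and at 0 to 2 before stimulation.

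Among activated and silent IL-13-indexed cells, Egr2 and Nr4a1 were both read in 4 of 22 cells, and Nr4a1 without Egr2 in 0. The IL-5 counts were 4 and 6 of 22. Before stimulation, replicate 2 of the IL-5 index held 5 members, with 4 reads of Egr1, 1 of Egr2, 13 of Nr4a1, 69 of Ier2 and 8 of Ier5.

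Libraries were pooled in sets of 5 or 6 before tagmentation, so single reads were examined. Of 312 detections of a member in a cell, 33 were of 1 read, and 26 of these were beside a cell of the same state and title date with at least 30 reads of that gene. Reads passing between libraries were not tested. Counting only detections above 1% of the reads of the gene in such a set, or only detections of at least 5 reads, left a median of at least 2.5 members per cell at 30 min in both indexes.

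The indexes were set side by side at the same state. Before stimulation the log2 ratio of the IL-13 to the IL-5 index was -1.94 for Ier5 (-3.54 to 0.45 on leaving out each cell), 1.08 for Ier2, -1.79 for Nr4a1 and 4.33 for Ier3, the latter pair against a group at 0 reads taken at the floor and each from 1 cell. At 30 min the log2 ratio of the IL-13 to the IL-5 index was 0.81 for Egr2, 0.09 for Nr4a1 and 0.31 for Ier5, 3.58 for Egr1 against the floor from 1 cell (5.30 at 60 min), and -2.02 for Ier3 (-4.47 to 2.83 on leaving out each cell). At 60 min it was 1.81 (1.53 to 2.10), 3.27 (2.83 to 3.75) and 1.53 (1.29 to 1.77), each in counting intervals and each above 1.3 on leaving out any cell. At 90 min Egr2 was 0.78 (-0.18 to 1.37 on leaving out each cell), Nr4a1 -0.35 (-0.74 to 0.16) and Ier5 -1.66 (-2.10 to -1.15), and among silent cells Ier5 was -1.46 (-2.89 to -0.94). Egr2 was 1.99 (0.35 to 2.31) among activated and 1.66 (0.86 to 5.57) among silent cells. These ratios carry the title dates with them, as the indexes share none.

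The levels of Egr2, Nr4a1 and Ier5 followed each other over the 12 groups, which share depth and libraries within a group. On log2(CPM + 1), Pearson r was 0.87 between Egr2 and Nr4a1, 0.86 between Nr4a1 and Ier5 and 0.78 between Egr2 and Ier5, as a description over 12 points. Ier2 and Ier3 had r of at most 0.37 with any of these 3. Among 2656 genes with a mean of at least 50 CPM, the 3 most like Egr2 were Gm12840, a predicted gene (r = 0.96), Ikbke, the gene of an inhibitor-of-kappa-B kinase (0.96), and Sema6d, a semaphorin (0.96). Those most like Nr4a1 were Nfkbiz, the gene of an atypical inhibitor-of-kappa-B protein (0.94), Pdcd1lg2, the gene of PD-L2 (0.93), and Gramd1a (0.91). Those most like Ier5 were Junb (0.90), Nfkbiz (0.89) and Birc3, the gene of cIAP2 (0.88). Nfkbiz was read in 11 of 11 cells at 30 min in the IL-13 index, from 351.6 to 1238.5 CPM, against 1 read before stimulation, and Junb in 11 of 11. On log2(CPM + 10), 1 of these 3 genes remained among the closest 3 for Egr2, and 2 of 3 each for Nr4a1 and Ier5. For Ier3 the 3 genes were Kmt2a (0.94), Pam16 (0.90) and Spg21 (0.90), and for Ier2 Abhd2 (0.72), Mycbp2 (0.71) and Cmpk1 (0.70).

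**Figure D5:**
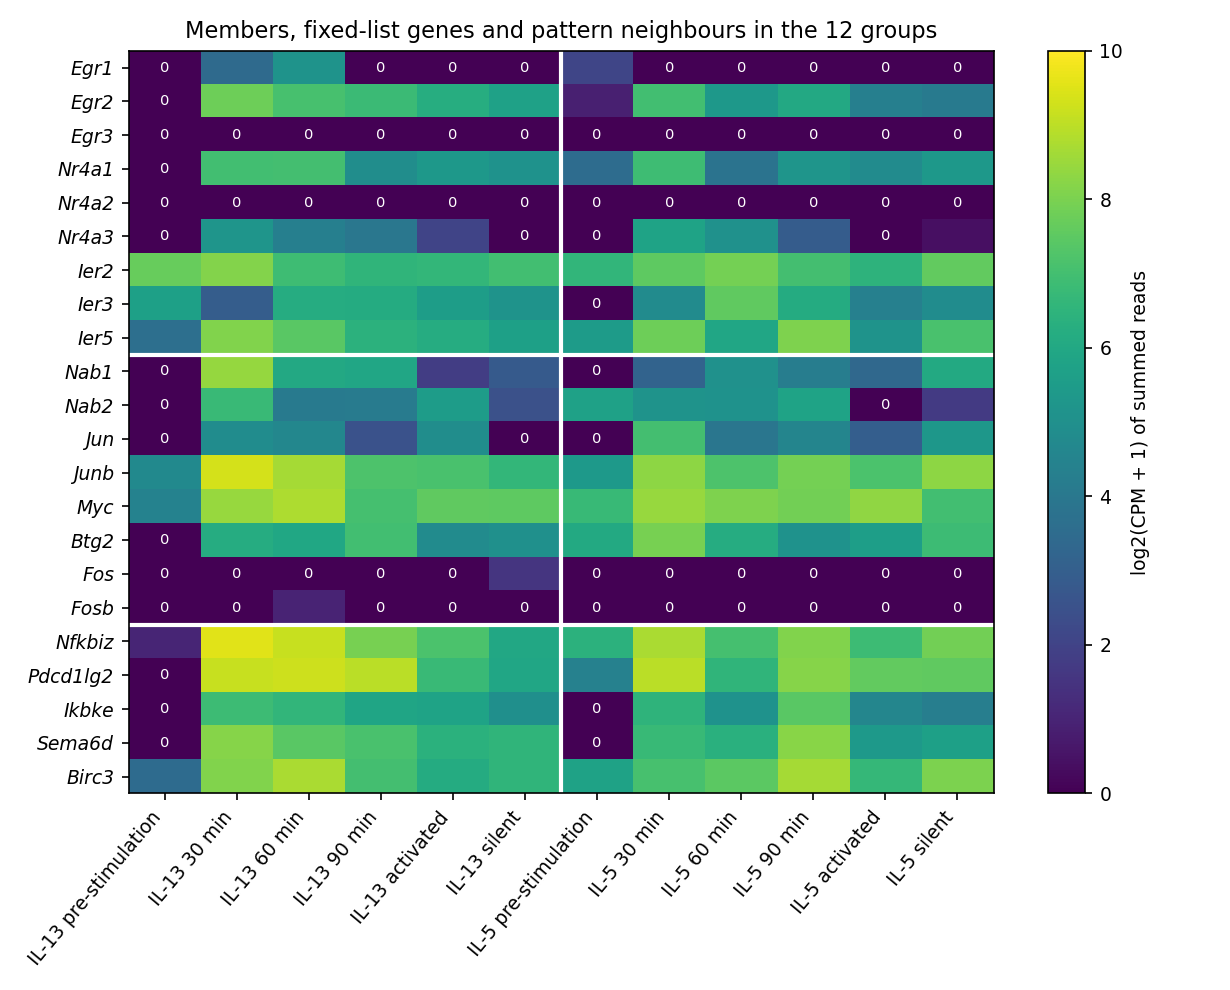
Colour gives log2(CPM + 1) of summed reads for the 9 members (top block), genes of the fixed lists (middle block) and genes most like a member (bottom block) in rows, over the 12 groups in columns; a 0 marks groups with no read. Egr3 and Nr4a2 are at 0 in all 12 groups, Fos and Fosb in 11 of 12, and Egr2, Nr4a1, Ier5, Junb and Nfkbiz are higher at 30 min than before stimulation in both indexes.

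Genes that act with the members were described from 4 lists. Of the Egr family and its corepressors, Egr4 was at 0, and Nab1 and Nab2, which bind Egr proteins and repress their targets, were at 0 before stimulation in the IL-13 index and at 339.9 CPM in 7 of 11 cells and 109.1 CPM in 8 of 11 cells at 30 min. Both were thus at least 4-fold higher there, and 0 of 2 in the IL-5 index, where Nab1 had 29 reads in 1 cell against 0 (at least 3.30-fold higher) and Nab2 was at 51.1 CPM before stimulation, from 1 cell, and 34.6 CPM at 30 min. That Nab2 log2 ratio of -0.56 ran from -2.08 to 3.39 on leaving out each cell. None of the 3 RXR genes, the partners of Nr4a receptors, had a mean of 20 CPM.

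Of 15 transcription factors and kinases upstream of these promoters, 8 passed that level. At 30 min 2 were at least 4-fold higher and 0 lower under the IL-13 index, and 3 higher and 1 lower under IL-5. Of the background genes 24% and 28.5% were higher, and 16.5% and 14.2% lower. Creb1, a factor that binds CRE elements, was at 155.0 CPM at 30 min against 0 in the IL-13 and at 93.5 against 22.3 CPM in the IL-5 index, and Rps6ka1, a kinase of the ERK pathway, had log2 ratios of -1.22 and -2.25. Leaving out each cell moved the Rps6ka1 ratios from -2.18 to -0.07 and from -2.98 to -1.05, and those of Creb1 from 4.48 to 5.80 against the floor and from 1.45 to 4.88, so that the IL-5 ratio of neither gene stayed past 4-fold throughout.

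Of 22 other immediate early genes, 10 passed that level. At 30 min 5 were at least 4-fold higher under the IL-13 index and 3 under IL-5, with 0 lower in both. The IL-5 count is near the background of 28.5%, and that of the IL-13 index stands beside 24%. The median log2 ratios were 2.01 and 1.23. Junb, an AP-1 subunit, was at 655.2 CPM against 25.9 in the IL-13 (log2 ratio 4.66, counting interval 4.09 to 5.29) and at 315.1 against 42.1 CPM in the IL-5 index (2.90, 2.50 to 3.34). Jun, its relative, had 0 reads before stimulation in both indexes, and 28.4 and 129.0 CPM at 30 min in 4 and 6 of 11 cells. Myc, a growth regulator, had log2 ratios of 4.08 and 1.74, and Btg2, an antiproliferative gene, 4.54 against the floor and 1.92. On leaving out each cell the ratios ran from 4.23 to 6.03 and 2.46 to 3.97 for Junb, from 3.66 to 5.81 and 1.25 to 2.73 for Myc, and from 3.82 to 4.75 and 1.31 to 6.25 for Btg2. Fos, the AP-1 partner of Jun proteins, had 5 reads in 1 of 120 cells and Fosb 3 reads in 1 cell, Zfp36 was in 3 cells, Atf3 in 3, Dusp1 in 4 and Ier5l in 0. Activated against 30 min, 5 and 4 of these 10 genes were at least 4-fold lower and 0 higher, against 15.7% and 14.1% of the background lower.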

How the data were processed

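Single-cell 3′ libraries were made by the authors (SMART-Seq v4 3′ DE chemistry) and pooled in sets of 5 or 6 before tagmentation. Per the labels, the submitters' processing notes name TopHat2 and the builds mm10 and GRCh38. The study's methods name GRCm38 for mouse reads. The authors deposited 1 table of raw HTSeq read counts per cell, 120 in all, for 46078 Ensembl genes and 5 summary entries. The strand setting and annotation release are not given in the sources used here. The summary entries were left out of totals. They held 28.7% of alignments as not unique, 7.42% as in no gene and 1.86% as ambiguous, and gene reads were 62.0%.

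Deposited counts were added up per group and divided by the group's gene reads (CPM). Symbols and GRCm38 positions came from GENCODE M21, by identifier. A group was 1 sample, without a test, since no culture is named per cell. A 4-fold limit and a floor of 3 reads per group were used, with exact Poisson and binomial intervals at 95% (SciPy 1.17.1, Python 3.11.15). The background was genes with a mean of at least 20 CPM. Thinning drew 100000 reads per cell without replacement. TMM factors (edgeR 4.0.16) and DESeq2 1.42.0 size factors of the 12 sums served as alternatives. The ratio script was tested on simulated data.

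Named were all members, up to 4 genes of each list ranked by the smaller of the absolute log2 ratios of the 2 indexes at 30 min, among genes of equal sign and a 12-group mean of 20 CPM, and the 3 genes most like each member over the 12 groups. Nab2, Fos, Fosb, Zfp36, Atf3, Dusp1, Egr4 and Ier5l were named as well, after their values were seen. Members and lists were chosen with earlier results of these data known.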

Additional observations from a re-analysis of the deposited data

Results flagged for a closer look

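In groups of 5 pre-stimulation cells, 1 cell stood apart by Dixon's limit in 6 of the 8 groups in which a member had a read. Chance gives about 1 in 20 such groups; where 1 cell holds all reads of a gene the limit is always passed, as it was in 4 of these 6. In the IL-13 index they were replicate 5 for Ier3, at 222.3 CPM, and replicate 3 for Ier5, at 60.7 CPM. In the IL-5 index replicate 2 stood apart for Egr1 at 13.0 CPM, for Egr2 at 3.26 CPM and for Nr4a1 at 42.4 CPM, and replicate 1 for Ier5 at 329.9 CPM.

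Egr1 and Ier3 had ratios of opposite sign in the 2 indexes that were at least 2-fold in both, and these differences were not tested. Other members differed in sign with a smaller ratio in an index. Ier5 of activated against pre-stimulation cells, for instance, was 2.66 in the IL-13 and -0.37 in the IL-5 index. For Egr1 the log2 ratio to pre-stimulation was 1.70 in the IL-13 and -1.97 in the IL-5 index at 30 min, and 3.48 and -1.91 at 60 min, all against a group at 0 reads taken at the floor. For Ier3 it was -2.89 in the IL-13 and 3.46 in the IL-5 index at 30 min.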

How the results depend on the processing

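No paired analysis was possible because replicate numbers follow accession order and pair no cells; ratios within a title date are given in its place. The counts of members at least 4-fold higher at 30 min than before stimulation stayed within 1.5 times under every alternative, 4 in the IL-13 index and 4 to 5 in the IL-5 index on leaving out each cell. On leaving out each cell the counts ran from 1 to 4 (IL-13) and 1 to 3 (IL-5) for activated against pre-stimulation, 0 to 1 in both indexes for activated against silent, and 1 to 5 (IL-13) for members lower in activated cells than at 30 min. The first title date alone gave 2 (IL-13) and 1 (IL-5) members higher in activated than silent cells, and the second, chosen after seeing the data, 1 and 1. A 2-fold limit gave 1 for activated against silent and 6 for lower in activated cells than at 30 min (both IL-13), and 5 for silent against pre-stimulation (IL-5). A pseudocount of 10 CPM gave 0 for lower in activated cells than at 30 min (IL-13), and 0 for activated and for silent against pre-stimulation (IL-5). TMM factors gave 4 for silent against pre-stimulation (IL-5); they moved all ratios of the IL-5 index to pre-stimulation up by 0.36 to 0.47 on the log2 scale, and those of the IL-13 index by 0.05 to 0.24. A limit of 5 reads gave a median of 2.5 members per cell at 30 min (IL-5). Of 545 log2 ratios of single members under these alternatives, 345 stayed within their counting interval and 196 moved beyond it. A further 4, all of ratios past the 4-fold limit, changed sign. Of the 29 ratios past the 4-fold limit 4 changed sign under an alternative, and of the 32 within it 17 did. The 4 were these: Nr4a1 of activated against 30 min (IL-5) was 0.54 on the second title date, Ier3 at 30 min against pre-stimulation (IL-13) ran from -5.34 to 0.75 on leaving out each cell, Ier5 of silent against pre-stimulation (IL-13) was -0.57 on the first title date, and Ier3 of activated against pre-stimulation (IL-5) was -0.17 against the pre-stimulation cells of both indexes. The cause was not tested. Groups of 5 and 11 cells, 1 sample each, limit all of this.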
